A study of Mus musculus with 5 samples.

Results

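Type 17 gamma-delta T cells are a small lymphocyte population that leaves the thymus already committed to making interleukin-17 (IL-17). They carry a T cell receptor of gamma and delta chains, respond to IL-23 and IL-1 without needing antigen, and are known from skin, lung, lymph nodes and, in low numbers, spleen. Here such cells were looked for among CD4 T cell preparations. They were chosen by their counts of Il23r, which encodes the specific chain of the IL-23 receptor, and of Cd163l1 and 5830411N06Rik, which encode scavenger receptor cysteine-rich proteins of the gamma-delta lineage. A barcode was a member when it had at least 500 unique molecular identifiers (UMIs, each a counted RNA molecule), 300 genes and at most 10% mitochondrial UMIs, at least 1 UMI of Cd3d, Cd3e or Cd3g, and a UMI of at least 2 of the 3 genes. The rule found 130 cells, or 0.569% (exact 95% interval 0.476 to 0.675, counting error only) of 22847 barcodes with a CD3 gene, out of 24639 that passed the filter and 25623 in all.

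The study used the 5′ chemistry of 10x Genomics on CD4 T cells that had been taken by negative selection from the spleen of 1 naive OT-II mouse, whose transgenic receptor sees an ovalbumin peptide. The labels describe 5 samples, 1 per group: OT-II cells alone with no treatment, and OT-II cells kept overnight in coculture with apCAFs, fibroblasts of mouse pancreatic tumors that present antigen, of the tumor clone sKPC with DMSO, sKPC with OVA, rKPC with DMSO, or rKPC with OVA. The age of the mouse is not stated, and the apCAFs had been sorted from dissociated tumors. The 2 deposited matrices held 5 libraries, told apart by barcode suffix and called Ga, Gb, Gc, Ha and Hb here. Nothing in the labels or headers says which suffix is which sample: the labels tie 2 samples to matrix G, which has 3 suffixes, and 3 samples to matrix H, which has 2. The libraries therefore stand for no condition, no condition was compared, and no p-value is given.

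Members came from every library, with 27, 20, 27, 33 and 23 cells in the order Ga, Gb, Gc, Ha, Hb, which is the order of all values by library below. As a share of barcodes with a CD3 gene, these were 0.516%, 0.650%, 0.421%, 0.787% and 0.585%. Their median depth was 11689 UMIs (1298 to 78952). No member shared its barcode sequence with another library. Such sharing was rare, at 144 of all 25623 barcodes, so its absence among 130 members says little. They were set beside 1561 barcodes without Cd4 or Il23r and with a UMI of both Trdc, the delta chain constant gene, and Klrd1, the CD94 chain of NK receptors (median 10164 UMIs, called Trdc Klrd1 cells here), and beside 14782 barcodes with a Cd4 UMI (median 8398, called CD4 T cells). Of the members, 8 also met the Trdc Klrd1 rule and were kept out of that set. That rule allows no Il23r UMI, so these 8 are among the 17 members without Il23r described below. No doublet caller was used. Over 8 myeloid marker genes, 122 members held no UMI, 6 held 1 UMI, and 2 held at least 10. These 2, called barcodes with myeloid genes below, were 1 in Hb with 838 UMIs of the lysozyme gene Lyz2 among 78952 UMIs in all, and 1 in Ha with 36698 UMIs. The main counts and the values most affected by this pair are given with and without them, and their part in other results was not tested.

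The chosen genes showed the following values, which describe the rule and are not findings. Il23r had a UMI in 113 members (median 5 UMIs, highest 25), 5830411N06Rik in 112 (median 5.5, highest 60) and Cd163l1 in 51 (highest 66). All 3 were found together in 16 members and exactly 2 in 114, and 26 members rested on 1 UMI for their second marker. Just outside the threshold were 481 barcodes with exactly 1 marker, of which 260 held only Cd163l1, 140 only 5830411N06Rik and 81 only Il23r. Blk had a UMI in 1.25% of those 481 barcodes and in 35.1% of the members with exactly 2 markers, Trdc in 49.1% and 86.0%, and Cd4 in 48.2% and 12.3%.

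Cd163l1 and 5830411N06Rik are neighbors on mouse chromosome 7 of build GRCm38, at chr7:140218267-140231145 and chr7:140247284-140300736, both on the plus strand and 16138 bases apart. Il23r lies at chr6:67422932-67491855 on the minus strand. Promoter windows of RefSeq (GRCm38.p6, 250 bases before to 50 after each start) were searched on both strands for AGGTCA, the core half-site of many nuclear receptors, the product of Rora among them. The stretches shown are those of the chosen gene Il23r, of the homing receptor Ccr6 and of S100a4, in gene orientation with the match or its reverse complement TGACCT in capitals.
Il23r, chr6:67491889-67491948, minus strand, match 66 bases before the start: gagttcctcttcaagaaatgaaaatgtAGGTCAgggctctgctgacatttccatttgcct
Il23r, chr6:67492052-67492105, minus strand, match 229 bases before the start: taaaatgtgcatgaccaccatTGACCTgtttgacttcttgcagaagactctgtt
Ccr6, chr17:8235972-8236031, plus strand, match 44 bases before the start: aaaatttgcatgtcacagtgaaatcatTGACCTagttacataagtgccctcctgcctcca
S100a4, chr3:90603719-90603778, plus strand, match 24 bases before the start: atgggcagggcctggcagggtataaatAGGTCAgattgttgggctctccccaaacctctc
Of 44 type 17 list genes with a window, 7 held the letters (15.9%), against 18.1% of all 27025 gene symbols, so the list as a whole held them no more often than other genes. The other 16 of 60 list genes were not in the table, and a match is a description of letters, not of binding.

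The members held gamma-delta receptor transcripts. Trdc had a UMI in 112 of 130 cells, and at least 1 of Trdc, Tcrg-C1, Tcrg-C2 and Tcrg-C4 in 124 (95.4%), against 15.4% of CD4 T cells. Tcrg-C1, a gamma chain constant gene, stood at 103 CPM (UMIs of a gene relative to all UMIs of its cell set; 95% Poisson interval 88.5 to 119, counting error only, as for all intervals) in members, 53.2 in Trdc Klrd1 cells and 1.37 in CD4 T cells. Its level in members was 84.1, 109, 113, 132 and 70.4 in the 5 libraries, above CD4 T cells in each. Of the variable segments, Trgv2 had a UMI in 64 members, Trdv2-2 in 22, Tcrg-V4 in 17, Trdv4 in 17, Tcrg-V1 in 14, Trdv5 in 10 and Tcrg-V6 in 7.

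Transcripts of the alpha-beta receptor constant genes were also present. Trac, the alpha chain constant gene, lies beside Trdc on chromosome 14 and had UMIs in every member at 10455 CPM, against 3425 in Trdc Klrd1 cells and 6303 in CD4 T cells. Members had 12282, 13996, 4832, 12331 and 9688 in the 5 libraries. Library Gc was also the lowest in the other cells, with Trac at 2003 in Trdc Klrd1 cells and 3757 in CD4 T cells. Trbc2, of the beta chain, stood at 1704 CPM in members, 1364 in Trdc Klrd1 cells and 2726 in CD4 T cells. Segments of invariant NKT and MAIT receptors (5 genes) summed to 15.1 CPM in members, 10.3 in Trdc Klrd1 cells and 58.3 in CD4 T cells, with Trav11, Trav11d and Trav1 at 0 UMIs in members. Cd4 itself had a UMI in 18 members, whose median depth was 21826 UMIs against 11350 for the rest, and 10 of the 18 also held Trdc.

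Against Trdc Klrd1 cells, members differed in a number of genes. Of 6139 genes with a mean of at least 25 CPM over the 2 cell sets, 161 (2.62%) were at least 4 times higher in members and 29 (0.472%) at least 4 times lower, on summed UMIs with 0.5 added and without the genes of the rules. The direction was the same in all 5 libraries for 147 of the 161 and 27 of the 29. Of the 161, 25 had over 1 in 3 of their member UMIs in a single cell and 20 were found in under 10% of members. Because the level filter takes the mean of the 2 sets, a gene near 0 in 1 set passed only by being high in the other. That fixed its call. Single cells also weigh more in members, which held 1790631 UMIs against 16477343. The numbers of higher and lower genes are therefore not compared with each other. Without the pair of barcodes with myeloid genes the counts were 150 and 31, of which 141 and 26 were also called with them. These are differences between pooled cells of unassigned libraries, so there is no replicate check of any condition.

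**Figure D1:**
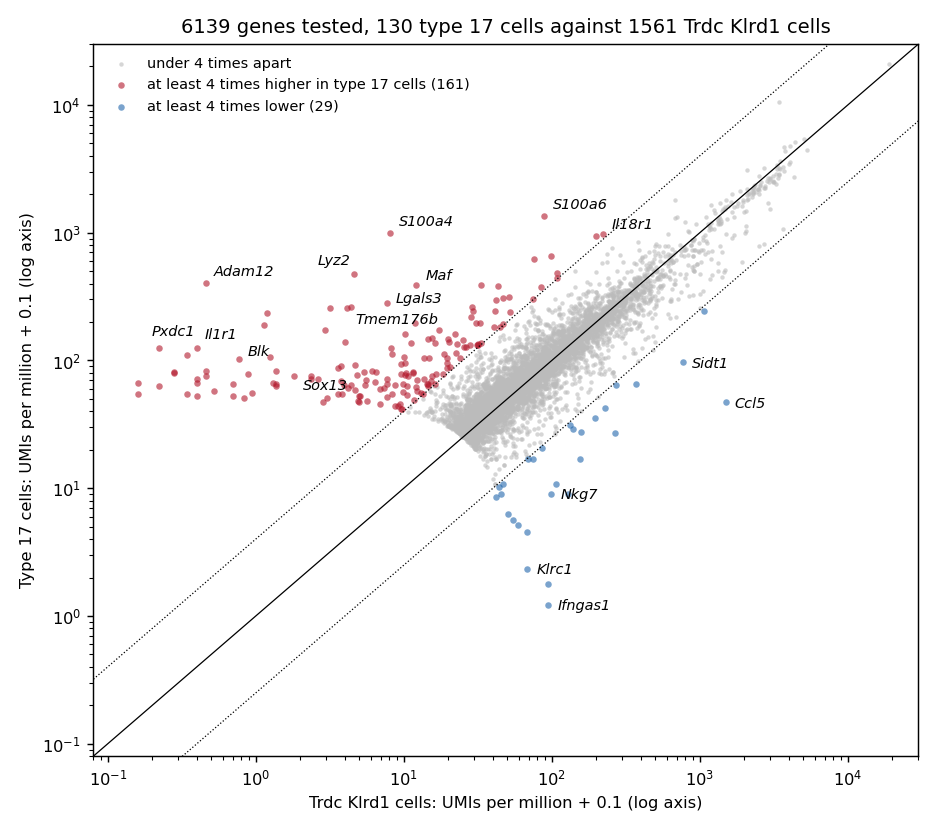
Each point is 1 of 6139 genes, with its level in 1561 Trdc Klrd1 cells (x) and 130 type 17 cells (y) in CPM plus 0.1, both on log axes; dotted lines mark 4-fold. The 161 genes above the upper line include Adam12, Il1r1 and S100a4, and the 29 below the lower line include Ccl5, Nkg7 and Ifngas1; Lyz2 and much of Lgals3 came from 2 barcodes.

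Of 17 listed regulators, 13 passed the level filter and 6 were at least 4 times higher than in Trdc Klrd1 cells, among them Rora, Sox13, Maf, Zbtb16 and Blk. Over all tested genes the share as much higher was 2.62%. Sox13, a factor of gamma-delta lineage choice, was at 76.0 CPM in members, with 67.8 to 85.5 across libraries, and at 1.699 in Trdc Klrd1 cells. The ratio of summed Sox13 was 44.7 to Trdc Klrd1 cells (29.6 to 69.8). Maf, which is needed for IL-17-producing gamma-delta cells, was at 387 CPM against 12.02 and, in CD4 T cells, 39.6. Blk, a Src family kinase used by these cells, had 102.2 against 0.668, with 94.9, 94.5, 85.5, 153 and 65.0 in the 5 libraries. Zbtb16, which encodes the innate-like lymphocyte factor PLZF, had 81.0 against 6.37, and Rora, which encodes a nuclear receptor of the type 17 program, had 657 against 99.3. Each of these 5 genes was higher in members than in either other set in all 5 libraries. Listed regulators that many T cells share differed less: Stat3 stood at 211 against 179 CPM, Gata3 at 62.0 against 63.1, and Tox, at 351 against 471, was the lower in members.

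Receptors and homing molecules formed the next group, with 7 of 14 tested genes (18 listed) at least 4 times higher than in Trdc Klrd1 cells. The share of all tested genes as much higher was 2.62%. Il1r1, the signaling receptor for IL-1, stood at 136, 70.9, 82.8, 211 and 78.6 CPM in the 5 libraries, against 0 to 1.32 in Trdc Klrd1 cells and 0.344 to 1.17 in CD4 T cells. The highest of these was the fourth, Ha, and the lowest still exceeded every library of the other sets. Il18r1, a chain of the IL-18 receptor, had 973 CPM against 221 (ratio 4.40, 4.15 to 4.66). Il17re, a chain of the receptor for IL-17C, had 66.5 against 0.303.

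Among chemokine receptors, Ccr2 stood at 173 CPM in members against 2.85 in Trdc Klrd1 cells, and Cxcr6 at 304 against 74.0. The ratio of Cxcr6 was 4.11 (3.71 to 4.55) and dropped under 4 without library Ga, without Ha or among members with Trdc. Ccr6, the receptor for CCL20 and a usual marker of type 17 cells, had 44.1 CPM against 0.182 in Trdc Klrd1 cells, on 79 UMIs in 31 members; its mean of the 2 sets fell under the level filter, so it is in no count. It was at 19.0, 42.5, 16.6, 94.0 and 32.5 in the 5 libraries. Ramp1, part of the receptor for the neuropeptide CGRP, had 297 against 42.0 CPM, and Icos, a costimulatory receptor, 183 against 44.6 (ratio 4.11, under 4 without Gc, without Ha or against comparison cells chosen without the Klrd1 rule). Il7r, the IL-7 receptor that sustains resting T cells, was near the level of Trdc Klrd1 cells, at 1792 against 1500.

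**Figure D2:**
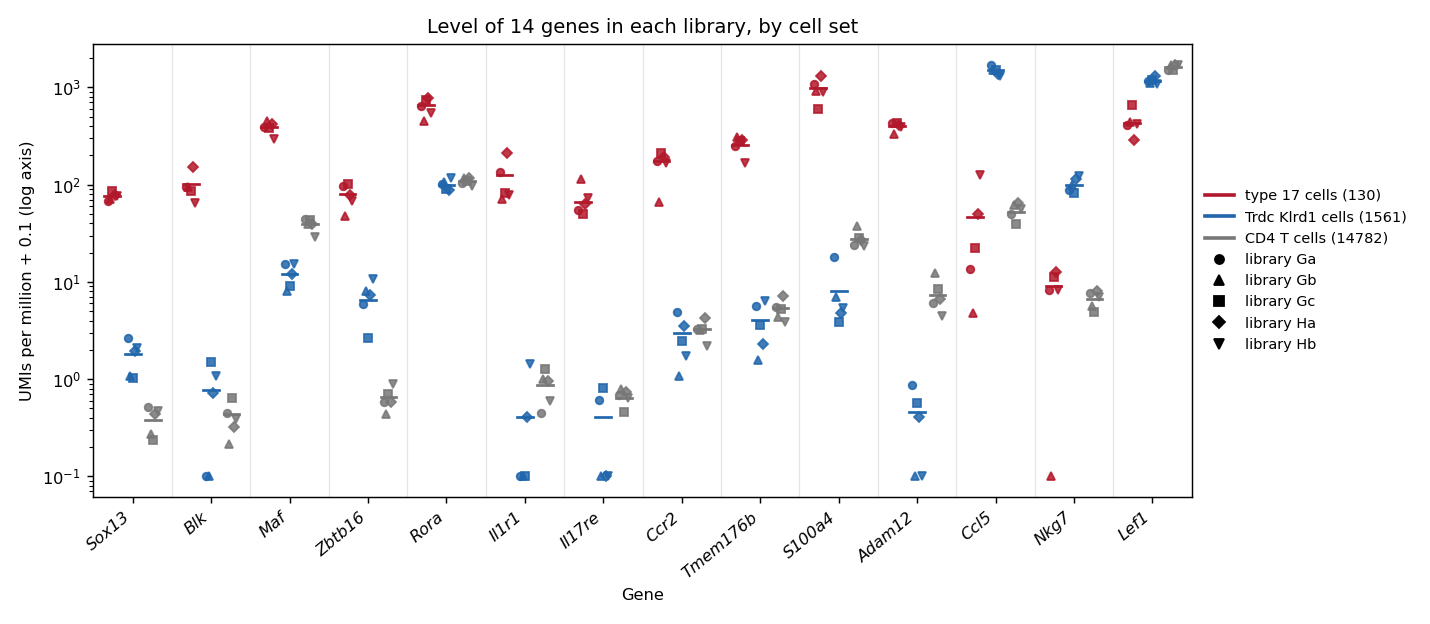
Level of 14 genes in CPM plus 0.1 (log axis) in the 5 libraries (symbols) for 3 cell sets (colors); bars mark the value over all libraries. For Sox13 to Adam12 the 5 red symbols lie above all blue and gray ones, while for Ccl5, Nkg7 and Lef1 they lie below the blue ones.

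Few UMIs of the cytokines themselves were found. Il17a had 0 UMIs among 1790631 in the members, which allows up to 1.68 CPM (3 counts). Il17f had 1 UMI, Il22 had 5 in 4 cells, and Csf2, the gene for GM-CSF, had 22 in 6 cells, of which 10 were in 1 cell. The 7 listed cytokines summed to 21.8 CPM in members (39 UMIs), 1.40 in Trdc Klrd1 cells and 4.06 in CD4 T cells, and none passed the level filter. In members the sum was 59.66, 0, 24.83, 8.356 and 10.83 CPM in the 5 libraries, and 22 of the UMIs lay in Ga, without which it was 11.96. In CD4 T cells it was 2.36 without Gc. Ifng also had 0 UMIs in members, against 14 in Trdc Klrd1 cells (0.850 CPM). Tnf was detected, at 38.0 CPM in 30 members against 1.88 in Trdc Klrd1 cells, with 16.3, 28.4, 63.5, 58.5 and 13.5 in the 5 libraries. It stood at 9.73 CPM in CD4 T cells.

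Other genes known from these cells formed a further group, with 12 of 14 tested (18 listed) at least 4 times higher than in Trdc Klrd1 cells. Among all tested genes the share as much higher was 2.62%. Adam12, a membrane metalloprotease, stood at 426, 331, 431, 407 and 393 CPM in the 5 libraries, against 0 to 0.762 in Trdc Klrd1 cells and 4.36 to 12.2 in CD4 T cells. It had a UMI in 79 of 130 members and in 6 of 1561 Trdc Klrd1 cells. S100a4, a calcium-binding protein of effector cells, had 990.2 CPM against 7.95, and its relative S100a6 1357 against 87.9. Tmem176a and Tmem176b, neighboring genes on chromosome 6 for membrane proteins known from type 17 lymphocytes, had 256 against 3.10 and 257 against 4.01.

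Further members of this group were Pxdc1 at 124.5 CPM against 0.121, Ckb, a creatine kinase, at 65.3 against 0.607, Capg, an actin-capping protein, at 174 against 17.1, and Serpinb1a, a protease inhibitor, at 87.1 against 3.52, where 51 of the 58 UMIs of Trdc Klrd1 cells lay in 1 cell. Rbpms, also listed, was the lower in members, at 45.8 against 151. The potassium channel gene Kcnk1 had 36.9 CPM with 0 UMIs in Trdc Klrd1 cells, at least 202-fold higher against 3 counts over that set. Lgals3, which encodes galectin-3, was at 284 CPM, but 334 of its 508 UMIs lay in the 2 barcodes with myeloid genes, and without them it was at 104. Over all 60 type 17 genes, 41 were tested, 25 were at least 4 times higher and none was as much lower. Among all tested genes, 2.62% were as much higher and 0.472% as much lower. The median log2 ratio of the 41 list genes was 2.78, beside 0.08 for all tested genes. Members and lists were chosen with earlier results of these data known. The values therefore describe the members and are no independent support for their name. The summed level of the 60 genes in members was 13378, 12540, 12166, 14077 and 11717 CPM in the 5 libraries, about level across libraries and above 3815 to 4235 in Trdc Klrd1 cells.

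Among the genes with the largest ratios were several outside the lists. Cpe and Pcsk1, enzymes that process peptide hormones, stood at 67.0 and 62.6 CPM, against 0.0607 and 0.121 in Trdc Klrd1 cells; Cpe had a UMI in 30 members and Pcsk1 in 29. Arnt2 and Npas2, transcription factors of the bHLH-PAS family, had 54.7 and 82.1 CPM against 0.0607 and 0.364. Zfp462, a zinc finger gene, was found in 82 members, at 236 CPM against 1.09, with 203 to 282 across libraries. Mmp25, a membrane-bound metalloproteinase, was found in 65 members at 71.5 against 0.303, and Nupr1, a stress-induced nuclear protein, in 41 at 110.0 against 0.243. Fstl4 (81.0 CPM in 27 members) and Dlc1 (54.7 CPM in 16), were rarer. Cntn1 had 134 UMIs in only 8 members, 48 of them in 1 cell. Single libraries weighed on some of these levels: Arnt2 was at 32.4 CPM without Ga, Pcsk1 at 40.8 without Hb and Cntn1 at 39.6 without Ha.

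Genes of the IL-23, IL-1 and IL-6 signaling chain were lower in sum in members, at 1173 CPM against 1541 in Trdc Klrd1 cells, and lower in each library. Of 17 listed genes, 12 were tested and most were under 4 times apart, as were most of all tested genes. At least 4 times higher was 1 gene (Irak3, a brake on IL-1 receptor signaling, at 69.8 against 12.1 CPM) and as much lower was 1 (Il12rb2). The shares of all tested genes were 2.62% and 0.472%. Il6ra was at 60.9 against 59.4 CPM and Il6st at 54.7 against 148. Il12rb1 encodes the chain that the IL-23 and IL-12 receptors share, and had 36.9 CPM in members, 2.31 in Trdc Klrd1 cells and 1.25 in CD4 T cells; it lay under the level filter. Il12rb2, the chain specific to the IL-12 receptor, had 6.14 against 50.6. Stat4, which acts below the IL-12 receptor, was at 342 against 741, whereas the kinase Jak2 was at 118 against 120. The median log2 ratio of the 12 genes was -0.13.

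Several genes of type 1 and NK-like lymphocytes were at least 4 times lower in members. Ccl5, a chemokine of effector cells, stood at 13.6, 4.73, 22.1, 50.1 and 125 CPM in the 5 libraries, against 1316 to 1717 in Trdc Klrd1 cells. Over all libraries members had 46.9 CPM of Ccl5, near the 52.6 of CD4 T cells. Nkg7, of cytotoxic granules, was at 8.94 against 99.3 CPM, and Tbx21, the type 1 transcription factor T-bet, at 8.94 against 45.2. Eomes, its relative, had 1 UMI in members against 515 in Trdc Klrd1 cells. Klrc1 and Klrc2 had 2.23 against 68.2 and 8.94 against 128; they encode the partners of CD94, whose gene Klrd1 chose the comparison cells. With comparison cells chosen without the Klrd1 rule, Tbx21 was under 4 times lower. Ccl5 was at 26.7 CPM in members without Hb, and Klrc2 at 3.81 without Ha.

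Of the 28 type 1 and cytotoxic genes, 13 were tested, 5 were at least 4 times lower, 2 at least 4 times higher, and the median log2 ratio was -1.66. Over all tested genes the shares were 0.472% lower and 2.62% higher. Il2rb, at 129 against 151 CPM, Cxcr3, at 58.6 against 71.1, and Klrk1, at 65.9 against 108, were under 4 times apart. The higher pair were Tyrobp and Fcer1g, adapters of myeloid and NK receptors, and 165 of the 167 Tyrobp UMIs lay in the 2 barcodes with myeloid genes. The summed list in members was at 881 CPM with these barcodes and 532 without, against 2879 in Trdc Klrd1 cells and 420.4 in CD4 T cells. Also among the 15 smallest ratios were Ifngas1, a long noncoding RNA beside Ifng (2 UMIs, 1.12 against 94.8 CPM), Samd3 (1.68 against 93.8), the phosphodiesterase gene Pde2a (26.8 against 265), Dapl1 (10.6 against 106), Sidt1 (96.6 against 766), Gpr174, a lysophospholipid receptor (27.4 against 157), and the factor Myb (65.9 against 373). Ppic, Lrrk1 and Mctp2 were at 5.03 against 59.0, 5.585 against 54.6 and 16.8 against 155. In members, Dapl1 was at 4.901 CPM without Gc and Lrrk1 at 3.049 without Ha.

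Genes of naive, recirculating T cells were lower in sum in members than in both other sets, though only Dapl1 of 9 tested was at least 4 times lower than in Trdc Klrd1 cells and only Ccr7 of 8 than in CD4 T cells. The shares of all tested genes as much lower were 0.472% and 0.603%. Over the 10 listed genes the sum was 2569 CPM, against 4927 in Trdc Klrd1 cells and 6466 in CD4 T cells. In members it was 2223 CPM in the 113 with Il23r and 6025 in the 17 without. These 17 also raise the pooled Lef1 of members. Lef1, a factor of naive T cells, was at 435 CPM against 1175 and 1608, and Ccr7, a chemokine receptor for lymph node entry, at 41.3 against 143 and 224. Lef1 was at 409.5, 444, 665, 288 and 420 in the 5 libraries, each below every library of the other sets. The gut homing receptor Ccr9 went the other way, at 250.2 against 75.0 and 39.0.

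Against CD4 T cells, 196 of 6137 tested genes (3.19%) were at least 4 times higher in members and 37 (0.603%) at least 4 times lower. The type 17 lists were chosen with earlier results of these data known. Of the 42 type 17 list genes tested there, 27 were higher and none lower, with a median log2 ratio of 3.03. They included 4 that were not called against Trdc Klrd1 cells: Id2, an inhibitor of DNA-binding factors (174 against 31.4 CPM), Itgae, the CD103 integrin chain (112 against 4.38), Rbpms (45.8 against 6.46), and Cd44, an adhesion receptor of antigen-experienced cells (264 against 52.2). Cxcr6 was at 304 against 7.80. The 6 innate lymphoid type 3 markers together were at 37.4 CPM in members and 25.7 in CD4 T cells, with 27.12, 0, 44.15, 73.11 and 16.25 in members by library. They were higher than in CD4 T cells in 2 of 5 libraries, Gc (within counting error) and Ha, and at 24.4 in members without Ha. The 6 NK markers were at 14.5 and 1.89. B cell markers (7 genes) summed to 124.5 CPM against 166, fibroblast markers (8 genes) to 2.79 against 3.11 (1.27 in members without Gb, on 2 UMIs), and myeloid markers (9 genes) to 665 against 74.0, or 90.2 in members without the 2 barcodes. Dendritic cell markers were at 29.6 against 7.15 CPM, on 53 UMIs in members, of which 17 (10.15 CPM) were left without the 2 barcodes. By library they stood at 10.85, 42.54, 0, 73.11 and 13.54 in members, and at 13.7 without Ha. Erythroid markers were at 110.0 against 465 CPM, with 21.7, 61.45, 57.95, 77.29 and 319.6 in members by library and 573.5, 63.98, 1136, 68.21 and 43.06 in CD4 T cells. Members were the lower in Ga and Gc and the higher in Hb, while the values of Gb and Ha did not differ beyond counting error. Without Hb members stood at 55.6, and without Gc CD4 T cells stood at 212. The proliferation list was at 217 against 135, and at 47.8 in members without the 2 barcodes. OT-II receptor segments were at 25.7 against 43.2. The part of these other cells in the results was not tested.

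Because the rule needs UMIs of low-level genes, it favors deep barcodes, so shares of cells were also taken after each cell was thinned to 3000 UMIs (129 members, 1550 Trdc Klrd1 cells and 14499 CD4 T cells were deep enough; 1, 11 and 283 were left out). Sox13 then had a UMI in 23.3% of members (16.3 to 31.5), 0.323% of Trdc Klrd1 cells and 0.0690% of CD4 T cells, while the unthinned shares were 46.9%, 1.34% and 0.169%. The thinned shares of Maf were 60.5%, 2.90% and 5.52%. Il1r1 gave 26.4%, 0.129% and 0.103% after thinning, and Ccr2 gave 22.5%, 0.258% and 0.655%. The low shares in both other sets are the background against which those of members are read, and all 4 genes exceeded it. All 4 were already at least 4 times higher in the summed counts of the same cells. The members were also still those chosen before thinning. The shares are therefore no independent check on the favor for deep barcodes.

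The members were not uniform, and the split followed Il23r. The 130 cells held Il23r with 5830411N06Rik (79 cells), Il23r with Cd163l1 (18), all 3 (16), or Cd163l1 with 5830411N06Rik and no Il23r (17). In these 17, which came from all 5 libraries (1 to 5 cells each, median 10334 UMIs), Blk, Sox13, Ccr2, Ccr6, Lgals3 and Tmem176a had no UMI in any cell. A count of 0 allows up to 17.6% of such cells to have a UMI, and limits barcodes with a UMI, not cells that express the gene. Among the 113 with Il23r, Sox13 had a UMI in 61 and Blk in 49. S100a4 was found in 1 of 17 cells against 104 of 113, and Adam12 in 1 of 17 against 78 of 113. Gamma-delta transcripts were present in both, with Trdc in 15 of 17 and 97 of 113.

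Instead, the 17 cells held genes of naive T cells. Lef1 had a UMI in 15 of 17, at 1669 CPM against 312 in the cells with Il23r, and Themis, a T cell development gene, was at 1644 (16 of 17 cells) against 201. Ccr9 was at 503 against 225, and Klrd1 was found in 8 of 17 against 18 of 113. The type 17 lists summed to 4080 CPM in the 17, close to the 4050 of Trdc Klrd1 cells, and to 13882, 13709 and 13351 in the 3 combinations with Il23r. The naive list summed to 6025 CPM in the 17 against 2308, 1669 and 2565. The 17 cells are called type 17 cells here by the rule only, and they are in the pooled values of members. The split was seen in the data and was given no test.

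**Figure D3:**
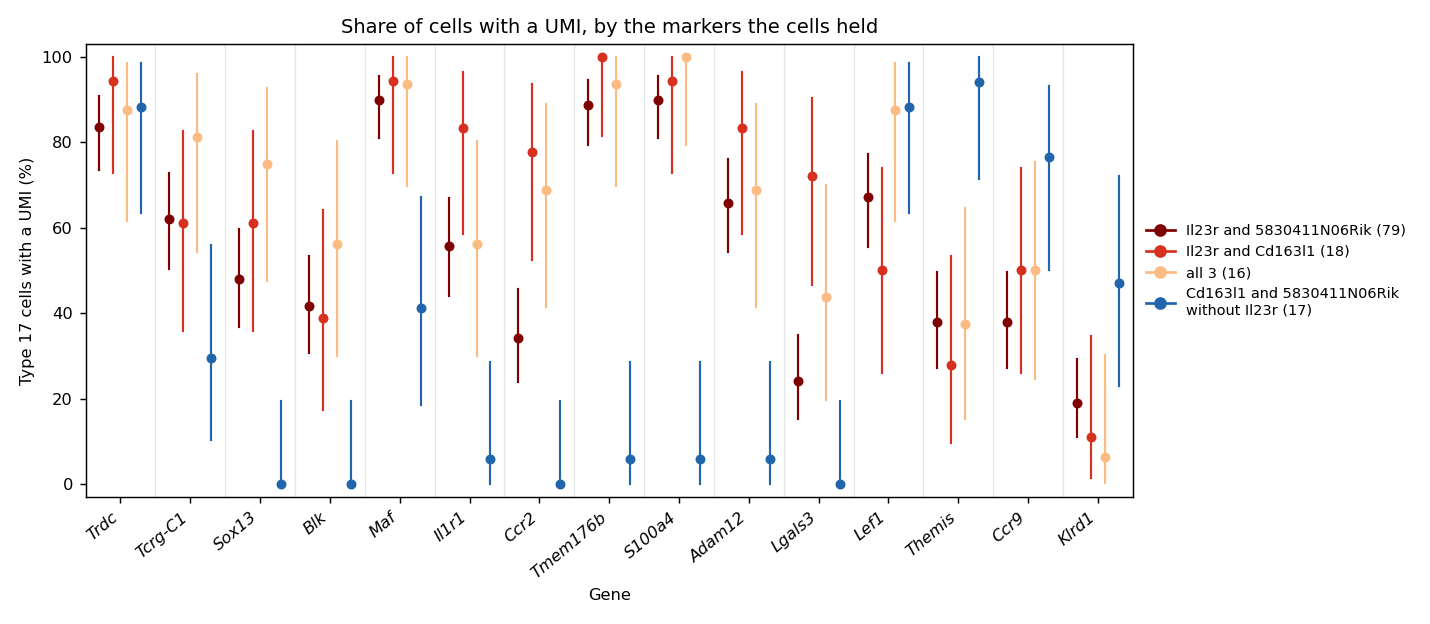
Share of members (type 17 cells by the rule) with a UMI for 15 genes, by the markers the cells held. Dots have exact 95% binomial intervals covering counting error only. Blue dots, the 17 cells without Il23r, are at 0 for Sox13, Blk, Ccr2 and Lgals3 and high for Lef1 and Themis.

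Within the cells with Il23r, those with Cd163l1 were set beside those with 5830411N06Rik. Sox13 stood at 89.2 CPM with Cd163l1 and 80.5 with 5830411N06Rik, and Maf at 387 and 424. Ccr2 had a UMI in 14 of 18 cells with Cd163l1 and 27 of 79 with 5830411N06Rik, at 338 and 126 CPM; without the barcode of Hb with myeloid genes, which is in the first group, it was at 309. Zbtb16 had 169 and 69.8. The levels of Sox13, Maf and Zbtb16 in the first group include that barcode. It held 78952 UMIs, with 10 of Maf and none of Sox13 or Zbtb16, so these levels are lower with it than without it. The delta segment Trdv4 was found in 9 of the 18 cells and 7 of the 79, and Tcrg-V4 in 1 and 13. With 18 cells in the smaller group, shares of single genes carried wide intervals, for example 26.0% to 74.0% for Trdv4.

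Across libraries, genes that respond to interferon gamma varied widely in members. The summed list of 14 genes stood at 4521, 1565, 4009, 873 and 831.5 CPM in the 5 libraries. Trdc Klrd1 cells had 1457, 713, 1384, 733 and 690, and CD4 T cells 2225, 811, 2655, 743 and 831. Ga and Gc were the highest libraries in all 3 cell sets, and members were above both other sets in each library but Hb, where 831.5 in members and 831 in CD4 T cells did not differ beyond counting error. Gbp6, a guanylate-binding protein induced by interferon, had 635, 109, 370, 60.6 and 54.2 in members and was the 1 gene of the list at least 4 times higher than in either other set.

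The genes that follow T cell receptor signaling behaved differently. Their summed list of 16 genes stood in CD4 T cells at 832, 143, 846, 140 and 123 CPM in the 5 libraries. In members it stood at 401, 369, 541, 566 and 423, where the Hb value was 258 without its barcode with myeloid genes. Nr4a1, an immediate gene of receptor signaling, was at 73.3 and 74.6 CPM in CD4 T cells of Ga and Gc, and at 2.71 and 5.52 in members, on 7 UMIs over all members. Irf4 was at 91.9 and 83.0 in CD4 T cells of these libraries and had 4 UMIs in all members. Il2ra, the high-affinity IL-2 receptor chain, was instead high in members of each library, at 174, 123, 204, 253 and 173, against 8.22, 7.58 and 6.82 in CD4 T cells of Gb, Ha and Hb and 123 and 129 in those of Ga and Gc. In members of Hb, 27 of the Il2ra UMIs lay in the barcode with myeloid genes. Il2ra is 1 of the 16 listed genes and made up a large part of their sum in members, from 123 of 369 CPM in Gb to 253 of 566 in Ha. It was at least 4 times higher than in Trdc Klrd1 cells, but not against comparison cells chosen without the Klrd1 rule. Which samples these libraries were is not known here, so the values describe libraries and not treatments.

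**Figure D4:**
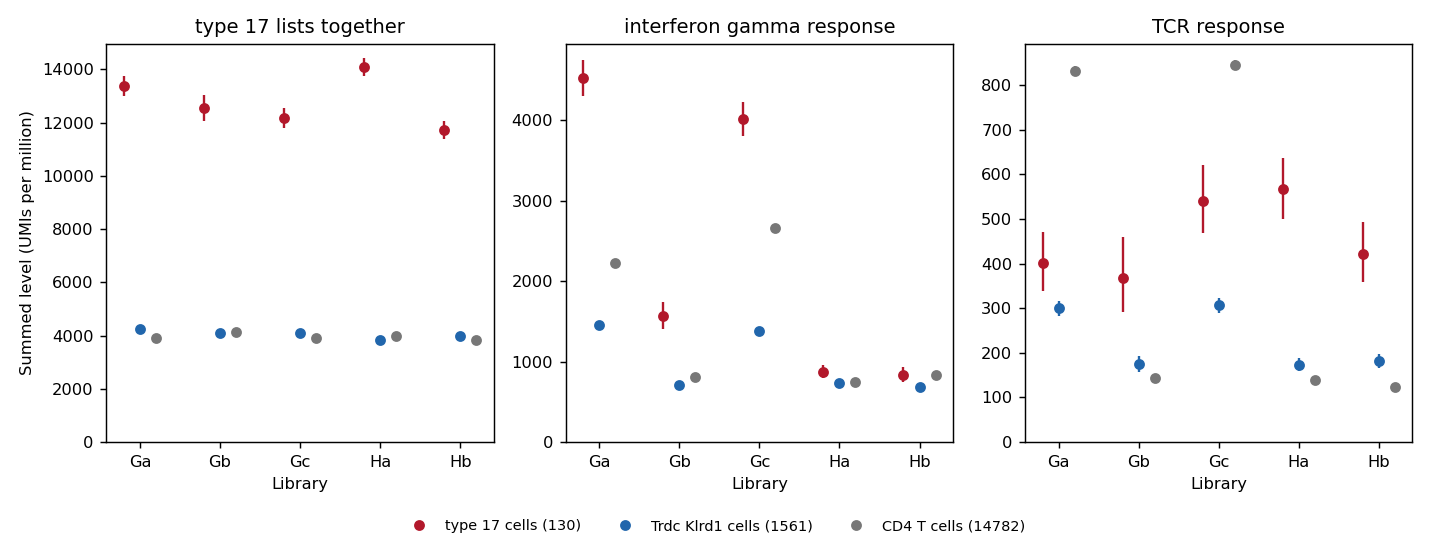
Summed level in CPM of the 60 type 17 genes, 14 interferon gamma response genes and 16 TCR response genes in each library for 3 cell sets; vertical lines are exact 95% Poisson intervals, hidden by the dot where narrow. Type 17 genes stay between 11717 and 14077 in type 17 cells, interferon genes are highest in Ga and Gc, and TCR response genes of CD4 T cells are high in Ga and Gc.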

How the data were processed

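RNA of single mouse cells was measured in 5 samples with 1 sample per group. The files deposited by the authors hold UMI counts per gene and barcode in 2 matrices of 32285 genes; the submitters' processing notes name Cell Ranger 6.0.0 and build mm10, while the file headers name cellranger 7.1.0. Depth equalisation on aggregation and counting of intronic reads are not given in the sources used here. Both matrices were pooled. Barcodes passed with at least 500 UMIs, 300 genes and at most 10% mitochondrial UMIs, which left CD3-positive totals of 25704937 UMIs (Gb) to 59309990 (Gc). UMIs were summed per cell set and library and scaled to CPM; a gene was called at a ratio of at least 4 or at most 1 in 4, with 0.5 added, among genes with a mean of at least 25 CPM. Intervals are 95% Poisson, Clopper-Pearson or conditional binomial and cover counting error only.

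All genes of 21 lists could be named, and beyond them the 15 largest and 15 smallest ratios to Trdc Klrd1 cells with the same side in at least 4 of 5 libraries; some of these genes are not reported here. Members and lists were chosen with earlier results of these data known. The comparison was tested on simulated counts before use. The alternatives were other cell filters, marker numbers, scalings, level filters, depths and comparison cells, and leaving out each library. The labels give no replicates, so no test was run. Gene positions are from GENCODE (GRCm38) and promoter windows from RefSeq. Tools were Python 3.11.15, numpy 2.4.6, scipy 1.17.1 and pandas 2.3.3.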

Additional observations from a re-analysis of the deposited data

How the results depend on the processing

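No paired analysis was possible because each group has 1 sample and no library could be tied to a sample. The rule set the size of the population: 611 cells (2.67% of CD3-positive barcodes) held at least 1 of the 3 markers (below, with 1 marker), 16 (0.07%) all 3, and 71 (0.345%) still met the rule after thinning to 3000 UMIs. Without the deepest 5% of barcodes the share was 0.451%. Genes at least 4 times higher than in Trdc Klrd1 cells numbered 59 with 1 marker, 2145 with no filter on low genes and 74 at a mean of 50 CPM; those lower numbered 7 with 1 marker, 93 with all 3, 50 in members without Cd4, 81 after thinning, 63 in members with Il23r, 356 with no filter and 16 at 50 CPM. Against CD4 T cells the higher genes numbered 72 with 1 marker, 7949 with no filter and 96 at 50 CPM, and the lower ones 3 with 1 marker, 75 with all 3, 58 without Cd4, 68 after thinning and 398 with no filter. The summed type 17 lists had a log2 ratio to Trdc Klrd1 cells of 1.67, and of 0.89 with 1 marker, 1.72 with all 3, 1.59 with Trdc, 1.71 without Cd4, 1.62 without the deepest barcodes, 1.78 after thinning, 1.76 with Il23r and 1.69 without myeloid barcodes; leaving out 1 library gave 1.60 (without Ha) to 1.70. The type 1 list had -1.71, and -1.43 with 1 marker, -2.0 with all 3, -2.52 without the deepest barcodes, -2.75 after thinning, -2.43 without myeloid barcodes, -2.24 by mean per-cell CPM and -1.31 without the Klrd1 rule; leaving out 1 library gave -2.32 (without Hb) to -1.52. With 1 marker the gamma-delta list changed sign against Trdc Klrd1 cells (-0.69) and the interferon list against CD4 T cells (-0.01). Leaving out 1 library moved the number of cells to 97 to 110, their share to 0.52% to 0.627%, the genes higher and lower than in Trdc Klrd1 cells to 147 to 172 and 29 to 37, and those against CD4 T cells to 179 to 204 and 29 to 44. The share of members with Il1r1 was 26.4% at 3000 UMIs, 13.2% at 1500 and 53.1% unthinned. Of 61 called single genes that were checked, none changed sign and 18 went under 4 times in some setting, 17 of them with 1 marker. The settings with Il23r and without myeloid barcodes were chosen after seeing the data. The cause of these shifts was not tested. The 7 cytokine genes had 39 UMIs in all in members, so small differences in them were not detectable at this depth.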

Other observations

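The 5 libraries, which no label ties to a sample, fell apart in interferon gamma response genes of the type 17 cells: 4521 (Ga) and 4009 (Gc) CPM stood apart from 1565 (Gb), 873 (Ha) and 831.5 (Hb). The same pair stood apart in Trdc Klrd1 cells (1457 and 1384, against 690 to 733) and in CD4 T cells (2225 and 2655, against 743 to 831). Type 17 genes showed no such separation in the members, with 11717 to 14077.

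Among members, the pair of barcodes with myeloid genes also held type 17 genes: the barcode of Hb had 26 UMIs of Cd163l1, 24 of Trdc and 13 of Adam12 beside 104 of the cycling gene Top2a, and it held 257 UMIs of 7 cycling genes where no other member had more than 4. Of the other members, 6 had 1 UMI of the 8 myeloid genes and 122 had none. Fcer1g, in contrast, still had 95 UMIs in 5 members without that pair, or 56.7 CPM.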
